A study of Mus musculus with 9 samples.

Results

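The genes described here are 43 genes of hepatic fatty acid oxidation, and of the nuclear receptor PPAR alpha that controls much of it, among the 27945 genes of a mouse liver RNA-seq table. They were taken by gene symbol and sorted by known role into 9 compartments, with 2 regulators, 4 enzymes of omega oxidation, 9 peroxisomal genes, 4 genes of carnitine entry, 10 enzymes of mitochondrial beta oxidation, 3 of electron transfer, 5 thioesterases, 1 enzyme of ketone body synthesis and 5 secreted or other targets. The table held 9 liver libraries, all from day 16. In the combined group, 3 libraries came from mice given glycyrrhizic acid together with gefitinib, a further 3 libraries came from mice given gefitinib alone, and the last 3 from mice given saline. Gefitinib blocks the kinase activity of the EGF receptor, and glycyrrhizic acid is a saponin from licorice. The series asked how glycyrrhizic acid bears on the liver injury that gefitinib causes. Glycyrrhizic acid alone was not among the groups analysed here, and no dose, strain, sex or age was stated in the sources at hand.

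PPAR alpha is a fatty acid sensor of hepatocytes. Together with RXR it binds DNA at a direct repeat of the AGGTCA hexamer and raises the genes that burn fat, above all in fasting. The liver oxidises fatty acids in several places: Cyp4a enzymes of the endoplasmic reticulum hydroxylate the omega end, peroxisomes shorten very long and dicarboxylic chains, and mitochondria, reached through the carnitine shuttle, complete beta oxidation and pass electrons to the respiratory chain. Excess acetyl-CoA leaves hepatocytes as ketone bodies, and secreted targets such as FGF21 and ANGPTL4 carry the fasting signal to other tissues.

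Library totals lay between 56440871 and 60665156 counts, and the 43 genes took 0.798%, 1.07% and 0.812% of the counts in the combined libraries, 1.27%, 1.22% and 1.07% in the gefitinib libraries and 1.48%, 1.08% and 1.41% in the saline libraries. Levels are given in CPM, which sets each count against the library total after TMM scaling. Comparisons between genes use FPKM, which also divides by transcript length. A gene was called where edgeR's quasi-likelihood test gave a Benjamini-Hochberg adjusted p under 0.05 over the 18113 genes tested, and all adjusted p-values below are from that test. Nothing in the labels says whether libraries of a group are from different mice, so the spread behind these p-values may be technical. A list of 14 hepatocyte markers summed to 78040, 83810 and 95420 CPM in the combined libraries, 107600, 102100 and 101600 CPM in the gefitinib libraries and 101200, 114500 and 102700 CPM in the saline libraries. Of these 14 markers, 4 were called lower and 1 higher in the combined group against saline, with a median log2 fold change of -0.38, and 2 lower and 1 higher against gefitinib, with a median of -0.24. Their part in the results on the 43 genes was not tested. In bulk tissue, fewer hepatocytes and less of an RNA per hepatocyte cannot be told apart. Markers of Kupffer cells and macrophages summed to 299.9 to 510.8 CPM in the combined libraries, 263.9 to 326.9 CPM in the gefitinib libraries and 176.9 to 292.8 CPM in the saline libraries, and 3 of the 8 were called higher in the combined group than in saline. Markers of sinusoidal endothelium summed to 55.5 to 77.3 CPM in the combined libraries, 107 to 124 CPM in the gefitinib libraries and 273 to 317 CPM in the saline libraries, and all 8 were called lower in the combined group than in saline. Skeletal muscle markers summed to 138 to 177 CPM in the combined libraries and to 205, 1.03 and 0.997 CPM in the gefitinib libraries, with at most 1.38 CPM in saline. Stellate cell and fibroblast markers summed to 386 to 468 CPM in the combined libraries, 147 to 194 CPM in the gefitinib libraries and 198 to 276 CPM in the saline libraries. That list was divided, with 3 of its 8 markers called higher and 1 lower in the combined group than in saline. No tested marker of adipocytes, cardiac muscle, kidney tubule, enterocytes or cholangiocytes was called in any comparison. Those tested were 1 of 8 for adipocytes, 2 of 6 for cardiac muscle and 2 of 6 for enterocytes, so these say little. For kidney tubule 6 of 6 were tested, and for cholangiocytes 5 of 6.

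In the combined livers, 20 of the 43 genes were called lower than in saline and 0 higher, which is 46.5% of the members, where 8.32% of all tested genes were called lower and 9.37% higher. Against gefitinib alone, 11 of 43 were called lower, or 25.6%, where 4.11% of all tested genes were called lower. The only member called higher in that comparison was Pdk4, the kinase that shuts off pyruvate dehydrogenase, and 4.96% of all tested genes were called higher. With gefitinib alone against saline, edgeR called 0 of the 43 genes, where it called 1.14% of all tested genes in either direction. At an unadjusted p under 0.05 there were 5 members, and 14.1% of all tested genes. DESeq2 called 1 member there, Angptl4, the secreted inhibitor of lipoprotein lipase, and 868 genes over the whole table. The combined comparisons use the same 3 combined libraries, and each shares its other group with the comparison of gefitinib and saline, so the counts are not independent of each other.

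These genes are mostly abundant in liver, and in the combined comparisons abundant genes were called more often in both directions. Of the 43 genes, 39 had a mean of at least 5 FPKM over the 9 libraries, and all 20 lower calls against saline lay among those 39. Over all genes at that level, 15.6% were called lower against saline and 11.5% higher. In the combined group against gefitinib, 11 of the 39 were called lower, where 8.57% of all genes at that level were called lower and 5.88% higher. Per length, Fabp1 was the highest member in every group. In the combined group it was followed by Acaa2 with 365 ± 39.8 FPKM, Acaa1b with 258 ± 72.9 and Etfb with 216 ± 9.04 FPKM (SD, n = 3). In saline it was followed by Acaa1b with 528 ± 63.9 FPKM, Cyp4a10 with 422 ± 205, Acaa2 with 415 ± 39.1 and Cyp4a14 with 358 ± 275 FPKM, and the SD ranges of both Cyp4a genes took in the means of the other 3. The lowest member was Acot3, with 0.928 ± 0.492 FPKM in the combined group, against Pdk4 as the lowest with gefitinib, at 1.32 ± 0.229 FPKM.

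**Figure D1:**
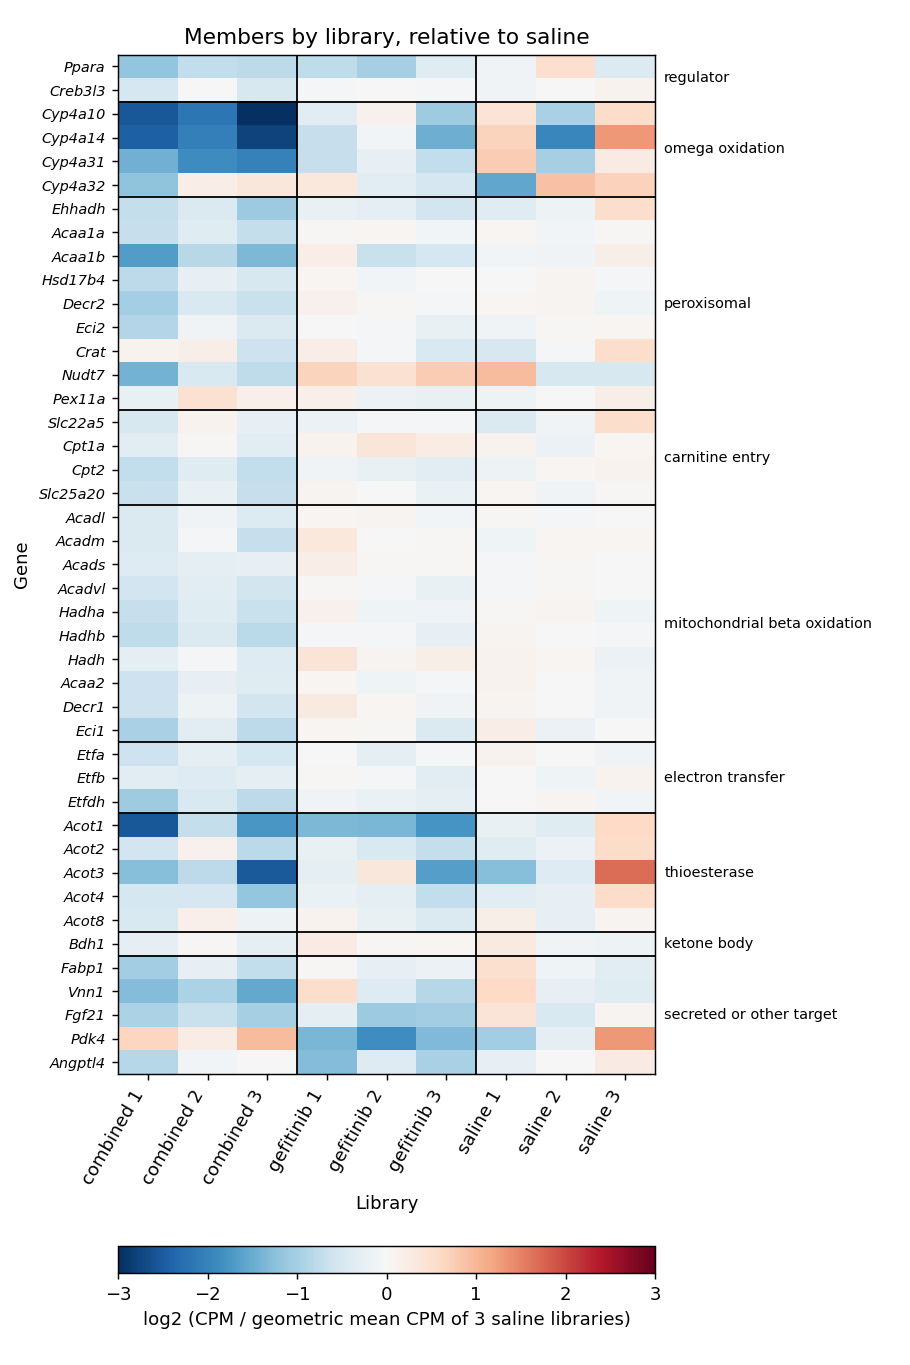
Levels of the 43 genes in each library. Columns are the 3 combined, 3 gefitinib and 3 saline libraries, rows are genes grouped by compartment, and colour gives log2 CPM relative to the geometric mean of the 3 saline libraries, from -3 to 3. The combined columns are mostly below saline, Cyp4a10, Cyp4a14 and Cyp4a31 most deeply, and combined 2 is paler than combined 1 and 3.

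The median log2 fold change of the 43 genes was -0.49 in the combined group against saline, with -0.01 over all tested genes, and 41 of 43 estimates were below 0, against 50.8% of all tested genes. Against gefitinib the members' median was -0.39, with 0.01 over all tested genes, and 36 of 43 estimates were below 0, against 49.5%. For gefitinib against saline the median was -0.11, with 33 of 43 estimates below 0, against 50.1% of all genes. In 27 members every combined library was below every saline library (18.0% of all tested genes), and in 0 every combined library was above (19.3%). Between the combined and gefitinib groups, 22 members did not overlap and were lower (15.0%), and 1 did not overlap and was higher (16.2%). Between gefitinib and saline, 4 did not overlap and were lower (10.2%) and 1 was higher (9.71%).

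How the libraries are scaled moved these counts. The combined libraries had TMM factors of 1.05 to 1.14, against 0.948 to 0.998 for gefitinib and 0.905 to 0.978 for saline. With scaling by library size alone, the median of all tested genes stood at 0.20 on the log2 scale in the combined group against saline and at 0.17 against gefitinib. The members' median was then -0.28 against saline and -0.23 against gefitinib, or 0.48 and 0.40 below all genes, against 0.48 and 0.40 below with TMM. With that scaling, 10 members were called lower against saline, where 4.44% of all tested genes were called lower and 16.5% higher. Against gefitinib, 2 members were called lower and 1 higher, where 2.1% of all genes were called lower and 8.35% higher. By the authors' FPKM, 14 members did not overlap and were lower in the combined group against saline (9.52% of all tested genes) and 0 were higher (30.9%). Against gefitinib, 13 did not overlap by FPKM and were lower (8.15%), and 1 was higher (25.7%). Separations named below for single genes are by CPM. Among them, the combined and saline groups overlapped by FPKM for Cyp4a14, Hsd17b4, Eci2, Eci1 and Fgf21. The combined and gefitinib groups overlapped by FPKM for Cpt2, Cpt1a, Acadvl and Vnn1.

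Single libraries also mattered. Relative to the saline mean, the median member stood at -0.69, -0.29 and -0.68 on the log2 scale in combined 1, 2 and 3. It stood at 0.04, -0.07 and -0.24 in gefitinib 1, 2 and 3 and at 0.02, -0.09 and 0.06 in saline 1, 2 and 3. Combined 2 was the highest of its group for 37 of the 43 genes. Gefitinib 1 was the highest of its group for 30 of them, and gefitinib 3 the lowest for 27. Without combined 1 or without combined 3, 8 members were called against saline, and without combined 2 there were 24. Without saline 2 there were 13. Against gefitinib, 1 member was called without gefitinib 1, without combined 1 or without combined 3, while 5 were called without gefitinib 2, 4 without gefitinib 3, 8 without saline 3 and 18 without combined 2. Calls over all genes dropped in each of these runs. Against saline, from 3205, they came to 2065 without combined 1, 2464 without combined 2, 2196 without combined 3 and 2136 without saline 2. Against gefitinib, from 1644, they came to 751 without gefitinib 1, 1183 without gefitinib 2 and 859 without gefitinib 3. They came to 867, 1112 and 901 without combined 1, 2 and 3, and to 1497 without saline 3. Without combined 2, member calls thus rose while calls over all genes fell. Of the 32 calls on members, 7 held in every alternative that was run, all against saline. These were Cyp4a10, Cyp4a31, Acaa1b, Decr2, Cpt2, Hadhb and Etfdh.

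**Figure D2:**
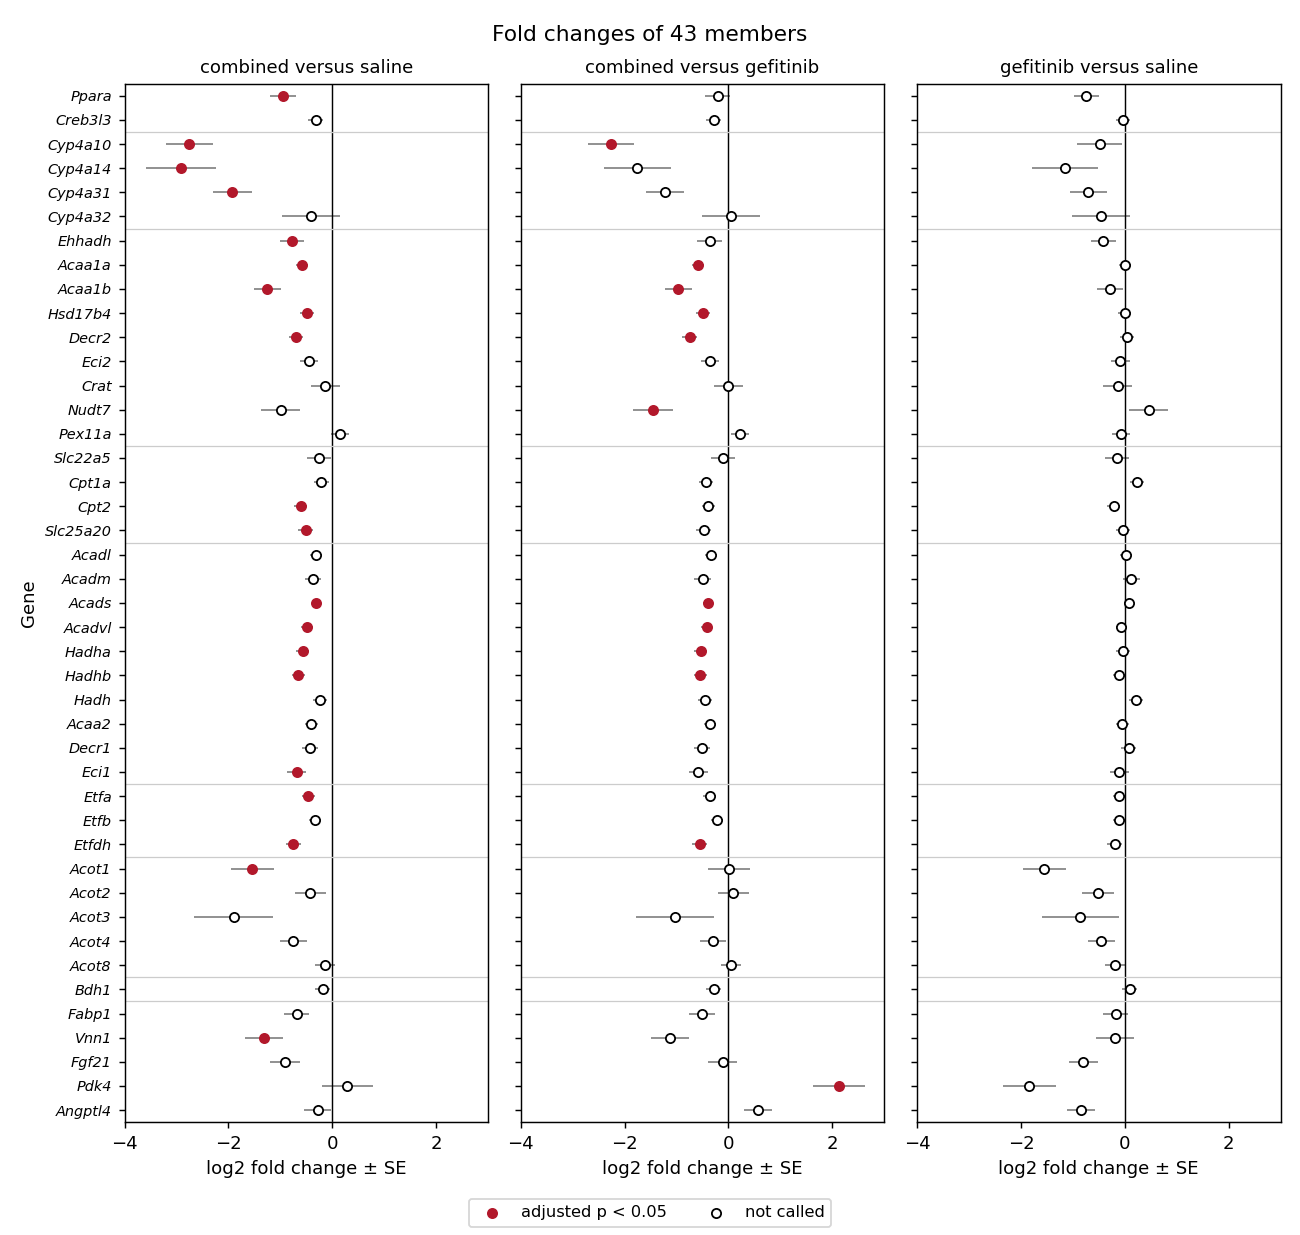
Log2 fold changes ± SE of the 43 genes in the 3 comparisons, from edgeR. Filled red circles mark an adjusted p under 0.05 and open circles the rest. Most circles lie left of 0 in both combined panels, Pdk4 lies at 2.13 against gefitinib, and the panel of gefitinib against saline has no filled circle.

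Ppara, which encodes PPAR alpha itself (ENSMUSG00000022383, GRCm38 chromosome 15, 85734983 to 85802819), was lower in the combined group than in saline. It stood at 19.0, 25.7 and 24.9 CPM in the combined libraries, 25.4, 21.5 and 33.6 CPM in the gefitinib libraries and 40.0, 61.6 and 32.6 CPM in the saline libraries. All combined values were below all saline values, and the gefitinib range reached from the combined levels into the saline range. The fall in the combined group against saline was 1.93-fold (log2 fold change -0.95 ± 0.24 SE, adjusted p = 0.0256). Against gefitinib the log2 fold change was -0.21 ± 0.24 (adjusted p = 0.665), and gefitinib against saline gave -0.74 ± 0.24 (adjusted p = 0.21). The call against saline ended without saline 2, the highest library, and without any of combined 1, 2 or 3, at adjusted p-values of 0.0501 to 0.0929. Creb3l3, a liver transcription factor that works alongside PPAR alpha in fasting, stood at 228, 320.4 and 233 CPM in the combined libraries, 318, 320.4 and 315 CPM in the gefitinib libraries and 301, 324 and 351 CPM in the saline libraries. Combined 1 and 3 were below the other libraries and combined 2 was among them, and Creb3l3 was called in no comparison (adjusted p = 0.145 against saline).

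Omega oxidation held the members with the largest falls. Cyp4a10, Cyp4a14 and Cyp4a31, fatty acid omega-hydroxylases that PPAR alpha activators induce in rodent liver, fell 3.79-fold to 7.51-fold in the combined group against saline, while Cyp4a32 was not called. The 4 genes lie on chromosome 4 (GRCm38), with Cyp4a14 first at 115486200 to 115496142, then Cyp4a10 and Cyp4a31, and last Cyp4a32 at 115600969 to 115621602. Cyp4a10 (ENSMUSG00000066072) stood at 165, 215 and 95.5 CPM in the combined libraries, 772, 1052 and 459.6 CPM in the gefitinib libraries and 1280.0, 492 and 1423 CPM in the saline libraries. Every combined library was below every other library, and saline 2 was close to gefitinib 3. Cyp4a10 fell 6.73-fold against saline (log2 fold change -2.75 ± 0.46, adjusted p = 0.00344) and 4.81-fold against gefitinib (adjusted p = 0.0144). Without combined 1 or without combined 3 the second call ended, at adjusted p-values of 0.0513 to 0.0517. Gefitinib against saline gave -0.48 ± 0.43 (adjusted p = 0.694).

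Cyp4a14 (ENSMUSG00000028715) stood at 143, 187 and 113 CPM in the combined libraries, 478, 738 and 279 CPM in the gefitinib libraries and 1237, 198.5 and 1894 CPM in the saline libraries. The saline libraries differed among themselves 9.54-fold, the widest spread of any member in that group, and saline 2 was just above the combined range. It fell 7.51-fold against saline (log2 fold change -2.91 ± 0.67, adjusted p = 0.0161), a call that ended without saline 3, combined 1 or combined 3, at adjusted p-values of 0.0507 to 0.0626. By FPKM its combined and saline groups overlapped. Against gefitinib the groups did not overlap, with a log2 fold change of -1.75 ± 0.64 (adjusted p = 0.128). Cyp4a31 (ENSMUSG00000028712), less abundant, stood at 23.4, 17.1 and 15.5 CPM in the combined libraries, 39.3, 53.5 and 38.0 CPM in the gefitinib libraries and 106, 31.7 and 74.3 CPM in the saline libraries. The combined libraries were again below all others, and saline 2 was again the lowest of its group. The fall against saline was 3.79-fold (adjusted p = 0.00666), and the estimate against gefitinib was -1.22 ± 0.36 on the log2 scale (adjusted p = 0.0654). Cyp4a32 stood at 62.7, 167 and 184 CPM in the combined libraries, 179, 117 and 102 CPM in the gefitinib libraries and 48.9, 266 and 232 CPM in the saline libraries. Its groups overlapped in all comparisons, and saline 1, high for the other Cyp4a genes, was its lowest library. The estimate for Cyp4a32 against saline was -0.40 ± 0.56 on the log2 scale (adjusted p = 0.684). In transcripts, Cyp4a32 shares 18.2% of its 100-base words with Cyp4a10 and Cyp4a31, Cyp4a10 shares 12.2% and Cyp4a31 7.33%, so reads could be split between these 3 genes, while Cyp4a14 shares none.

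**Figure D3:**
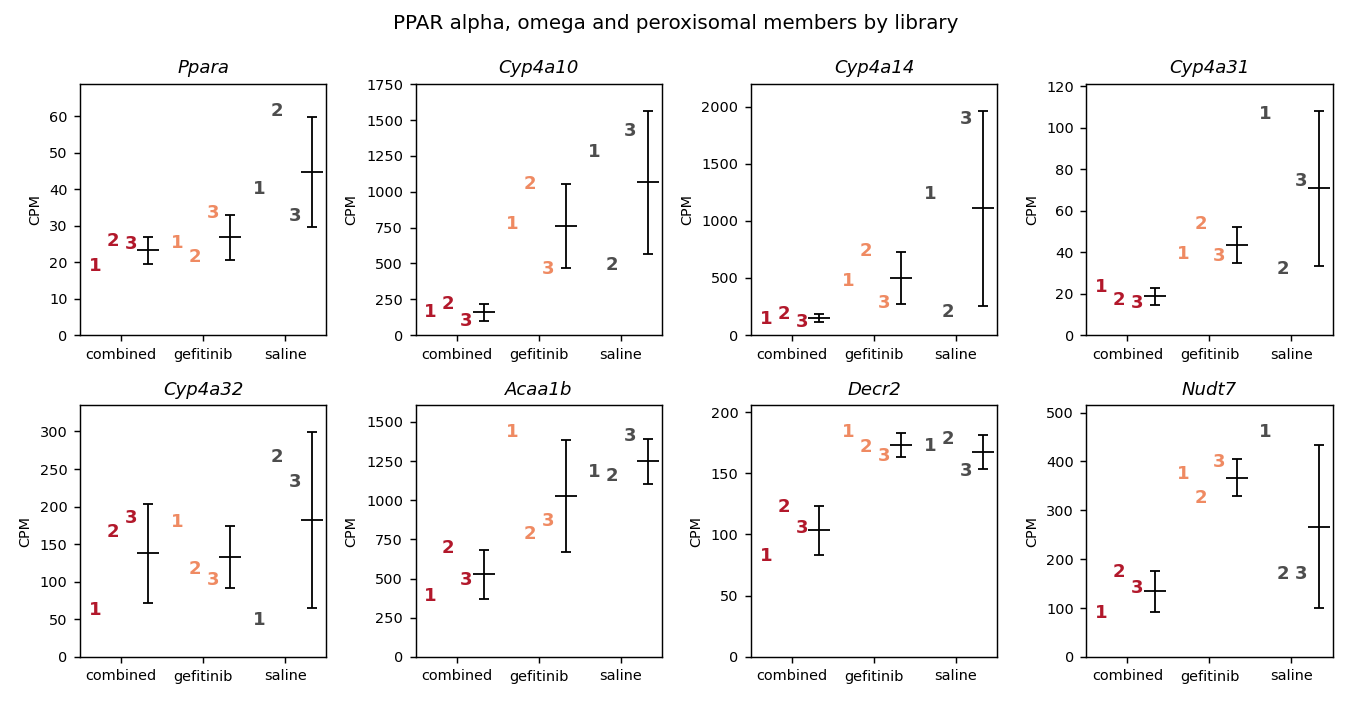
CPM of Ppara, the 4 Cyp4a genes and the peroxisomal genes Acaa1b, Decr2 and Nudt7 in each library. Digits give the replicate number at its level, and bars give mean ± SD of the 3 libraries of the combined, gefitinib and saline groups. Cyp4a10, Cyp4a14 and Cyp4a31 are lowest in the combined group, saline 2 is the low saline library for all 3, and Cyp4a32 shows no such order.

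In the peroxisome, 5 of 9 genes fell in the combined group against saline and 5 against gefitinib. Called lower were 8.32% and 4.11% of all tested genes, and 15.6% and 8.57% of those with at least 5 FPKM. The 2 ketoacyl-CoA thiolases that cleave acetyl-CoA from the shortened chain were both among the peroxisomal genes that fell. Acaa1b (ENSMUSG00000010651), the thiolase induced by PPAR alpha, stood at 391, 695 and 491 CPM in the combined libraries, 1433, 781 and 866 CPM in the gefitinib libraries and 1177, 1156 and 1412 CPM in the saline libraries. No combined library reached any library of the other groups, and combined 2 came closest, to gefitinib 2. Acaa1b fell 2.37-fold against saline (log2 fold change -1.25 ± 0.26, adjusted p = 0.0102) and 1.95-fold against gefitinib (adjusted p = 0.0467). The second call ended when any saline library, gefitinib 1, gefitinib 3, combined 1 or combined 3 was left out, at adjusted p-values of 0.0596 to 0.149. Acaa1a stood at 225, 284 and 222 CPM in the combined libraries, 369.8, 379 and 346 CPM in the gefitinib libraries and 377, 341 and 374 CPM in the saline libraries. The gefitinib and saline values covered the same narrow range, with all combined values below it. It fell 1.49-fold against saline (adjusted p = 0.00965) and 1.5-fold against gefitinib (adjusted p = 0.0169), and the call against gefitinib ended without gefitinib 1, combined 1 or combined 3, at adjusted p-values of 0.0582 to 0.0623. Of the 100-base words of Acaa1b, 19.3% are shared with Acaa1a, so part of the reads of these genes could be assigned to either. Acaa1a also overlaps Slc22a14 on the opposite strand over 10623 bases.

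Decr2, the peroxisomal dienoyl-CoA reductase needed for unsaturated chains (ENSMUSG00000036775, chromosome 17, 26081208 to 26090337), stood at 82.6, 122 and 105 CPM in the combined libraries, 184, 171 and 164 CPM in the gefitinib libraries and 173, 178 and 152 CPM in the saline libraries. The combined group was separate from both others, which overlapped each other. Decr2 fell 1.62-fold against saline (log2 fold change -0.70 ± 0.14, adjusted p = 0.00903) and 1.68-fold against gefitinib (-0.74 ± 0.14, adjusted p = 0.0126), and the call against gefitinib ended only without gefitinib 1 (adjusted p = 0.0507). Hsd17b4, the multifunctional enzyme that hydrates and dehydrogenates branched and straight chains, stood at 216, 309 and 266 CPM in the combined libraries, 383, 351 and 375 CPM in the gefitinib libraries and 364, 389 and 357 CPM in the saline libraries. Its combined values were below all others, and gefitinib and saline were level. The fall was 1.4-fold against saline (adjusted p = 0.0307) and 1.4-fold against gefitinib (adjusted p = 0.0482). Leaving out any saline library, combined 1 or combined 3 ended both calls, at adjusted p-values of 0.0595 to 0.0923 against saline and 0.0639 to 0.14 against gefitinib, where leaving out any gefitinib library ended the call too.

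Ehhadh, the bifunctional enzyme of the PPAR alpha-inducible peroxisomal pathway, stood at 272, 328 and 211 CPM in the combined libraries, 379.5, 365 and 299 CPM in the gefitinib libraries and 348, 399 and 639 CPM in the saline libraries. Combined 2 was close to saline 1, and the gefitinib range overlapped both groups. Ehhadh fell 1.71-fold against saline (log2 fold change -0.77 ± 0.24, adjusted p = 0.0484). That call was at the threshold, and ended without saline 2, saline 3, any gefitinib library, combined 1 or combined 3, at adjusted p-values of 0.0617 to 0.149. Nudt7, a peroxisomal hydrolase that breaks down coenzyme A and its esters, had another pattern, with 89.2, 173 and 140.2 CPM in the combined libraries, 375, 325 and 399 CPM in the gefitinib libraries and 459.7, 169.6 and 171 CPM in the saline libraries. Saline 1 was above the gefitinib group, while saline 2 and 3 were at the level of combined 2. Against gefitinib, Nudt7 fell 2.73-fold (log2 fold change -1.45 ± 0.38, adjusted p = 0.0433), a call that ended when any gefitinib or any combined library was left out (adjusted p = 0.0615 to 0.136). Against saline its estimate was -0.99 ± 0.38 (adjusted p = 0.101).

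The other 3 peroxisomal genes were not called in any comparison. Eci2, an enoyl-CoA isomerase, did not overlap between combined and saline libraries by CPM but did by FPKM. Its estimate was -0.45 ± 0.18 on the log2 scale (adjusted p = 0.111). Crat, carnitine acetyltransferase, stood at -0.13 ± 0.28 against saline (adjusted p = 0.797). Pex11a, which takes part in peroxisome division, was 1 of the 2 members with an estimate above 0 against saline, at 0.15 ± 0.18 (adjusted p = 0.629).

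Of the 4 genes that bring fatty acids into mitochondria as carnitine esters, Cpt2 and Slc25a20 fell in the combined group against saline, and none was called against gefitinib. Cpt2, carnitine palmitoyltransferase of the inner membrane (ENSMUSG00000028607, chromosome 4, 107903981 to 107923610), stood at 95.3, 122 and 95.3 CPM in the combined libraries, 147, 136 and 127 CPM in the gefitinib libraries and 142, 166 and 169 CPM in the saline libraries. All combined values were below all others. The fall against saline was 1.52-fold (log2 fold change -0.61 ± 0.13, adjusted p = 0.0108), and the estimate against gefitinib was -0.39 ± 0.13 (adjusted p = 0.0907). Slc25a20, the carnitine-acylcarnitine carrier, stood at 79.5, 109.9 and 79.0 CPM in the combined libraries, 136, 127 and 111 CPM in the gefitinib libraries and 133, 118 and 131 CPM in the saline libraries. Combined 2 came close to gefitinib 3, and the groups given gefitinib alone and saline overlapped. Slc25a20 fell 1.42-fold against saline (adjusted p = 0.0361), a call that ended without any saline library, gefitinib 2, combined 1 or combined 3, at adjusted p-values of 0.0541 to 0.12. Cpt1a, the outer-membrane enzyme that sets the rate of entry, was not called. Its estimates were -0.21 ± 0.14 against saline (adjusted p = 0.341) and -0.44 ± 0.14 against gefitinib (adjusted p = 0.0755). The combined and gefitinib groups did not overlap by CPM but did by FPKM. Slc22a5, the carnitine transporter of the plasma membrane, stood at -0.25 ± 0.23 against saline (adjusted p = 0.515).

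The 10 enzymes of mitochondrial beta oxidation had modest estimates of similar size. All 10 estimates were below 0 in both combined comparisons, from -0.69 to -0.24 on the log2 scale against saline and from -0.58 to -0.34 against gefitinib, with medians of -0.42 and -0.47. Against saline, 5 of the 10 were called lower, where 15.6% of all genes of at least 5 FPKM were, and against gefitinib 4, where 8.57% were. The compartment was also among the least variable: the median coefficient of variation of FPKM was 12.8% in the combined group, 7.36% with gefitinib and 7.46% in saline, where omega oxidation had 32.1%, 34% and 59%.

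Hadha and Hadhb encode the alpha and beta subunits of the trifunctional protein, which carries out the last steps on long chains. They are neighbours that are read away from each other on chromosome 5. In the deposited table Hadha spans 30118304 to 30155162 on the minus strand and Hadhb 30155248 to 30184593 on the plus strand, so 85 bases lie between their starts. This interval is shown because both subunits fell and it lies upstream of both. RefSeq places the starts of these genes at other bases, so the stretch between them is longer there. From the RefSeq promoter table (GRCm38.p6), chr5:30155163-30155247, plus strand, 5′ to 3′, it reads as follows.
Hadha-Hadhb interval: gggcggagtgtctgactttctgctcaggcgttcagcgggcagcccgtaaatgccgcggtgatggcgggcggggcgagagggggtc
Its GC content is 69.4%. Hadha stood at 183, 230.3 and 184 CPM in the combined libraries, 324, 269 and 273 CPM in the gefitinib libraries and 302, 313 and 269.7 CPM in the saline libraries. Hadhb stood at 112, 142 and 109 CPM in the combined libraries, 186, 181 and 160.5 CPM in the gefitinib libraries and 199.5, 187 and 183 CPM in the saline libraries. For both subunits every combined library was below every other one, with combined 2 the highest of its group. Hadha fell 1.48-fold against saline (log2 fold change -0.57 ± 0.13, adjusted p = 0.0151) and 1.45-fold against gefitinib (-0.54 ± 0.13, adjusted p = 0.0318). Hadhb fell 1.57-fold against saline (-0.65 ± 0.12, adjusted p = 0.00597) and 1.46-fold against gefitinib (-0.54 ± 0.12, adjusted p = 0.0249). The Hadha call against saline ended without saline 2, combined 1 or combined 3 (adjusted p = 0.0542 to 0.0574), and that against gefitinib without gefitinib 1 or 3 or combined 1 or 3 (0.0675 to 0.117). The Hadhb call against gefitinib ended without gefitinib 1 or 2 or combined 1 or 3 (0.0648 to 0.0905).

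The acyl-CoA dehydrogenases, which start each turn of the spiral, are ordered by the chain length they take. Acadvl, for very long chains, stood at 333, 388 and 339.6 CPM in the combined libraries, 509.5, 482 and 426 CPM in the gefitinib libraries and 487, 506 and 493 CPM in the saline libraries. The combined libraries were below all others. It fell 1.4-fold against saline (adjusted p = 0.0139) and 1.34-fold against gefitinib (adjusted p = 0.0422). Without combined 1 or without combined 3 the call against saline ended (adjusted p = 0.0503 to 0.0507), and the call against gefitinib ended without any 1 library other than combined 2 (adjusted p = 0.0521 to 0.142). Acadvl overlaps Dvl2 on the opposite strand over 2119 bases. Acads, for short chains, stood at 106, 113 and 116 CPM in the combined libraries, 158, 141 and 141 CPM in the gefitinib libraries and 134, 141 and 140.2 CPM in the saline libraries. The combined values were the lowest and lay close together, and the gefitinib values were just above the saline ones without overlap. Acads fell 1.24-fold against saline (log2 fold change -0.31 ± 0.09, adjusted p = 0.0452) and 1.31-fold against gefitinib (adjusted p = 0.0289). The call against saline ended without any 1 of the 9 libraries (adjusted p = 0.0512 to 0.137), and that against gefitinib without any gefitinib or combined library (0.0508 to 0.11). Acadl, for long chains, and Acadm, for medium chains, were not called. Their estimates were -0.32 ± 0.11 (adjusted p = 0.0804) and -0.37 ± 0.16 (adjusted p = 0.15) against saline and -0.34 ± 0.11 (adjusted p = 0.0951) and -0.49 ± 0.16 (adjusted p = 0.0918) against gefitinib.

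Eci1, the mitochondrial enoyl-CoA isomerase, stood at 73.1, 112 and 82.9 CPM in the combined libraries, 148, 147 and 106 CPM in the gefitinib libraries and 164, 127 and 141 CPM in the saline libraries. Combined 2 overlapped gefitinib 3, while the combined and saline groups were separate by CPM but not by FPKM. Eci1 fell 1.61-fold against saline (log2 fold change -0.69 ± 0.19, adjusted p = 0.032), and this ended without saline 1, saline 3, combined 1 or combined 3 (adjusted p = 0.069 to 0.108). The remaining 3 enzymes, Hadh (the dehydrogenase for short chains), Acaa2 (the thiolase) and Decr1 (the mitochondrial dienoyl-CoA reductase), were not called. Acaa2 was nearest to the threshold, with an estimate of -0.40 ± 0.12 against saline (adjusted p = 0.051), and Hadh was nearest against gefitinib, at -0.45 ± 0.13 (adjusted p = 0.058).

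**Figure D4:**
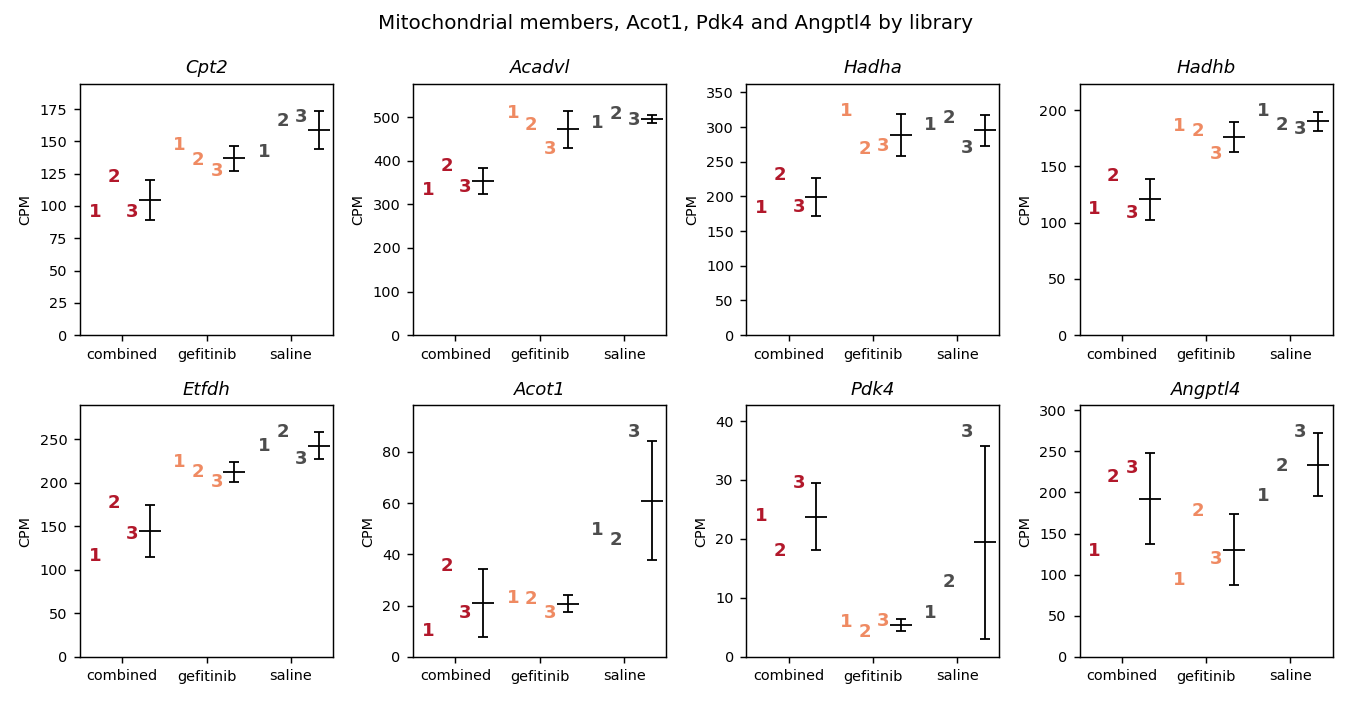
CPM of the mitochondrial genes Cpt2, Acadvl, Hadha, Hadhb and Etfdh and of Acot1, Pdk4 and Angptl4 in each library. Digits give the replicate number at its level, and bars give mean ± SD of the 3 libraries of the combined, gefitinib and saline groups. The first 5 genes are lowest in the combined group, Acot1 is highest in saline, and Pdk4 is lowest with gefitinib alone.

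The flavoprotein ETF takes electrons from the acyl-CoA dehydrogenases, and its oxidoreductase, encoded by Etfdh, passes them to ubiquinone. Etfdh (ENSMUSG00000027809, chromosome 3, 79603788 to 79629500) stood at 116, 176 and 141 CPM in the combined libraries, 223, 212 and 201 CPM in the gefitinib libraries and 242, 258 and 228 CPM in the saline libraries. The 3 groups did not overlap, with the combined group lowest and saline highest. Etfdh fell 1.68-fold against saline (log2 fold change -0.75 ± 0.15, adjusted p = 0.00714) and 1.47-fold against gefitinib (-0.55 ± 0.14, adjusted p = 0.0427). The call against gefitinib ended without any 1 library other than combined 2 (adjusted p = 0.0566 to 0.132). Gefitinib against saline gave -0.19 ± 0.14 (adjusted p = 0.625). Etfa, the alpha subunit, stood at 176, 226 and 188 CPM in the combined libraries, 274, 225 and 258 CPM in the gefitinib libraries and 289.6, 273 and 249.7 CPM in the saline libraries. Combined 2 and gefitinib 2 were level. Etfa fell 1.38-fold against saline (adjusted p = 0.0325), which ended without saline 1, saline 2, combined 1 or combined 3 (adjusted p = 0.0847 to 0.11). Etfb, the beta subunit, was not called (-0.33 ± 0.12 against saline, adjusted p = 0.09), and 35.8% of its 100-base words occur in other annotated genes.

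Among the acyl-CoA thioesterases, which release free fatty acids from coenzyme A, Acot1 fell in the combined group against saline and the other 4 were not called. Acot1, the cytosolic enzyme that PPAR alpha activators induce (ENSMUSG00000072949, chromosome 12, 84009490 to 84018371), stood at 10.1, 35.6 and 17.2 CPM in the combined libraries, 22.9, 22.4 and 17.0 CPM in the gefitinib libraries and 49.5, 45.5 and 87.6 CPM in the saline libraries. Saline was above both other groups without overlap, and the gefitinib libraries lay within the combined range. The fall against saline was 2.91-fold (log2 fold change -1.54 ± 0.41, adjusted p = 0.0296), a call that ended without saline 3, combined 1 or combined 3 (adjusted p = 0.0665 to 0.0994). Gefitinib against saline gave an estimate of about the same size, -1.55 ± 0.41, which was not called (adjusted p = 0.118), and the combined group against gefitinib gave 0.01 ± 0.40 (adjusted p = 0.991). Acot3, a peroxisomal enzyme in mice, differed 7.74-fold among the saline libraries, with an estimate of -1.90 ± 0.76 in the combined group against saline (adjusted p = 0.119). Estimates against saline were -0.75 ± 0.26 for Acot4 (adjusted p = 0.0752), -0.42 ± 0.30 for the mitochondrial Acot2 (adjusted p = 0.39) and -0.14 ± 0.19 for the peroxisomal Acot8 (adjusted p = 0.68). Acot1, Acot2 and Acot3 share 12.4%, 17.1% and 15.9% of their 100-base words with other genes, so reads could be split with those genes. Acot1 and Acot2 share most with each other, while Acot3 shares most with Gm49366, at 9.53%.

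Bdh1, which turns acetoacetate into beta-hydroxybutyrate at the end of ketone body synthesis, was not called in any comparison. Its log2 fold change was -0.18 ± 0.15 in the combined group against saline (adjusted p = 0.441) and -0.28 ± 0.15 against gefitinib (adjusted p = 0.273).

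Fabp1, the liver fatty acid binding protein that carries fatty acids through the hepatocyte cytosol, was the most abundant member per length, with 2797 ± 743 FPKM in the combined group, 3522 ± 233 FPKM with gefitinib and 3886 ± 1334 FPKM in saline (SD, n = 3 each). It stood at 1220.0, 2094 and 1497 CPM in the combined libraries, 2548, 2093 and 2203 CPM in the gefitinib libraries and 3492, 2283 and 1961 CPM in the saline libraries. Combined 2 lay within the saline range, and saline 1 was well above the other saline libraries. The estimate was -0.69 ± 0.24 against saline (adjusted p = 0.0807) and -0.51 ± 0.24 against gefitinib (adjusted p = 0.234). The promoter of Fabp1 is shown because it was the only member promoter with a match to the direct repeat to which PPAR alpha and RXR bind. It is from the RefSeq table (GRCm38.p6), chr6:71199629-71199826, plus strand, 5′ to 3′, up to the base before the deposited start of the gene, with the match in capitals.
Fabp1 promoter: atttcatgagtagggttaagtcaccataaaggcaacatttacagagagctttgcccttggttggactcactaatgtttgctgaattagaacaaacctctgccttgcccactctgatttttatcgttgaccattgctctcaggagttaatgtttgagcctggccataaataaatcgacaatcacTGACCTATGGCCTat
The 13-base match lies on the minus strand, with 2 bases between it and the deposited start. RefSeq places the start further downstream, and the match lies 67 to 55 bases before that start, which the search used. Both strands of the 250 bases before each start were searched for 2 copies of AGGNCA, N being any base, with 1 base between them, which 111 of 32851 promoters held (0.338%). The stricter form, 2 copies of AGGTCA with 1 base between them, was held by 11 (0.0335%). The table had promoters for 34 of the 43 genes, 38 in all, of which 1 held the looser motif and 0 the stricter.

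The other secreted or metabolic targets did not move together. Vnn1, a pantetheinase that rises with PPAR alpha activity in liver, stood at 8.82, 11.3 and 7.59 CPM in the combined libraries, 31.6, 16.8 and 12 CPM in the gefitinib libraries and 33.2, 18.3 and 17.1 CPM in the saline libraries. All combined values were below all others, and replicate 1 was the high library in both other groups. It fell 2.48-fold against saline (log2 fold change -1.31 ± 0.37, adjusted p = 0.0349), a call that ended without saline 1, saline 2 or any combined library (adjusted p = 0.0525 to 0.113). Against gefitinib the estimate was -1.13 ± 0.36 (adjusted p = 0.0867). Fgf21, the fasting hormone, stood at 3.42, 4.18 and 3.31 CPM in the combined libraries, 5.49, 3.10 and 3.22 CPM in the gefitinib libraries and 8.62, 4.84 and 7.02 CPM in the saline libraries. Combined and saline libraries did not overlap by CPM but did by FPKM. The estimate between them was -0.91 ± 0.29 (adjusted p = 0.0561), and gefitinib against saline gave -0.79 ± 0.29 (adjusted p = 0.251).

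Pdk4 and Angptl4 had their lowest group mean with gefitinib alone. Pdk4 (ENSMUSG00000019577, chromosome 6, 5483351 to 5496309) stood at 24.0, 18.0 and 29.5 CPM in the combined libraries, 5.94, 4.25 and 6.14 CPM in the gefitinib libraries and 7.47, 12.7 and 38.1 CPM in the saline libraries. The gefitinib libraries were below all others, and the saline libraries spanned the combined range and more. Pdk4 rose 4.37-fold in the combined group against gefitinib (log2 fold change 2.13 ± 0.51, adjusted p = 0.0307), while gefitinib against saline gave -1.83 ± 0.50 (adjusted p = 0.128) and the combined group against saline 0.29 ± 0.48 (adjusted p = 0.738). The call against gefitinib ended without any gefitinib library, combined 1 or combined 3 (adjusted p = 0.0738 to 0.0939). Pdk4 is also expressed in skeletal muscle, whose markers were present in the 3 combined libraries and in gefitinib 1. Muscle markers summed to 205 CPM in gefitinib 1, where Pdk4 was at 5.94 CPM, and to 1.03 and 0.997 CPM in gefitinib 2 and 3, where Pdk4 was at 4.25 and 6.14 CPM. The part of muscle RNA in the rise of Pdk4 was not tested. Angptl4 stood at 128, 219 and 229.7 CPM in the combined libraries, 93.8, 178 and 119 CPM in the gefitinib libraries and 196, 232 and 273 CPM in the saline libraries. Gefitinib and saline did not overlap, and the combined group lay across both. Its estimates were 0.56 ± 0.27 in the combined group against gefitinib (adjusted p = 0.233), -0.28 ± 0.27 against saline (adjusted p = 0.528) and -0.85 ± 0.27 for gefitinib against saline (adjusted p = 0.192).

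Other genes of the pathway, from lists that do not include the 43, were counted in the same fit. The counts below stand beside 9.37% of all tested genes called higher and 8.32% called lower in the combined group against saline, and 4.96% higher and 4.11% lower against gefitinib. Among 17 tested genes of other mitochondrial oxidation, 8 fell and 1 rose in the combined group against saline (median log2 fold change -0.49), and 8 fell and 1 rose against gefitinib (median -0.51). Acsl1, which activates long-chain fatty acids, averaged 530.6 ± 137 CPM in the combined group, 1063 ± 130 CPM with gefitinib and 1482 ± 18.6 CPM in saline (SD, n = 3 each). It fell 2.79-fold against saline (adjusted p = 0.000663). Mlycd, malonyl-CoA decarboxylase, fell 1.58-fold against saline (adjusted p = 0.00164). Acot9, a mitochondrial thioesterase, was the gene that rose against saline (log2 fold change 1.84, adjusted p = 0.00228). A list of other, mainly peroxisomal genes had 27 tested. Of these, 8 fell and 0 rose against saline (median -0.34), and 5 fell and 0 rose against gefitinib (median -0.31). Ephx2, the soluble epoxide hydrolase, was at 365 ± 76.6 CPM in the combined group and 911 ± 70.1 CPM in saline, a 2.5-fold fall (adjusted p = 0.000708). Acot12, a cytosolic thioesterase that this list also holds, fell 1.77-fold against saline (adjusted p = 0.00288). Hacl1, the lyase of alpha oxidation, fell 1.86-fold (adjusted p = 0.00336).

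The 17 receptors and coregulators of the PPAR and RXR families had a median of 0.03 in the combined group against saline, with 1 called higher and 1 lower, shares that are not above those of all tested genes (9.37% and 8.32%). Pparg, the adipogenic receptor, averaged 16.4 ± 1.88 CPM in the combined group and 2.46 ± 1.74 CPM in saline and rose 6.64-fold (adjusted p = 0.00251). With gefitinib alone it stood at 9.04, 5.83 and 7.23 CPM, above all saline libraries, and was not called against saline. Macrophage and stellate markers also summed higher in the combined libraries than in saline, and their part in the rise of Pparg was not tested. Against gefitinib the list had 1 gene called higher, Ppard, and 0 lower, and the Ppard call (log2 fold change 0.96, adjusted p = 0.0385) ended without saline 2 or 3, any gefitinib library, combined 2 or combined 3 (adjusted p = 0.0527 to 0.115). Ncor1, a corepressor, fell 1.34-fold in the combined group against saline (adjusted p = 0.0218), which ended without saline 1, saline 2, combined 1 or combined 3 (adjusted p = 0.0665 to 0.0804). Oxct1, the enzyme of ketone body use that hepatocytes normally lack, averaged 11.02 ± 1.53 CPM in the combined group and 3.77 ± 1.03 CPM in saline, a 2.92-fold rise (adjusted p = 0.00284).

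Fatty acid uptake, binding and activation was divided, with 5 of 18 genes higher and 6 lower in the combined group against saline (median -0.11), and 2 higher and 4 lower against gefitinib (median -0.18). Slc27a2, the very long chain acyl-CoA synthetase and transporter of hepatocytes, averaged 816 ± 136 CPM in the combined group, 1739 ± 116 CPM with gefitinib and 1872 ± 152 CPM in saline. It fell 2.3-fold against saline (adjusted p = 0.000606) and 2.13-fold against gefitinib (adjusted p = 0.00184). Lipe, the hormone-sensitive lipase, fell 2.07-fold against saline (adjusted p = 0.00149), and Acsl4, which activates arachidonic acid, rose (log2 fold change 1.15, adjusted p = 0.0019). Among 24 tested genes of other reported PPAR alpha targets, 3 rose and 8 fell against saline (median -0.20), where 9.37% of all tested genes rose and 8.32% fell. Against gefitinib 2 rose and 3 fell (median -0.27), where 4.96% and 4.11% of all tested genes did. Ucp2, a mitochondrial carrier also expressed by macrophages, was at 75.8 ± 8.99 CPM in the combined group and 25.7 ± 2.87 CPM in saline (adjusted p = 9.69e-05). Macrophage markers also summed higher in the combined libraries, and their part in this rise was not tested. Retsat, retinol saturase, fell 3.81-fold (adjusted p = 0.000722). G0s2, an inhibitor of adipose triglyceride lipase, averaged 16.3 ± 5.47 CPM in the combined group, 30.3 ± 5.37 CPM with gefitinib and 135 ± 80.7 CPM in saline. It fell 8.33-fold in the combined group against saline (adjusted p = 0.00113) and was the only gene of these lists called with gefitinib alone, 4.48-fold lower than saline (adjusted p = 0.0388). That last call ended without saline 2 or 3, any gefitinib library, combined 1 or combined 2 (adjusted p = 0.0508 to 0.148).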

How the data were processed

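Liver RNA of 9 mouse libraries was sequenced, with column-purified RNA and a SMARTer library kit, per the labels' protocols. Per the file headers, the deposited table gives unnormalised counts and FPKM values per gene and library. The submitters' processing notes name GRCm38, also called mm10, as the genome build. For the aligner, the counting tool and strand, a statement was not given in the sources used here. Where genes overlap or share sequence, reads may therefore be shared. All 18 value columns matched a library by name. Library totals of 56440871 to 60665156 counts limit precision less than the spread between libraries does. Libraries within a group differed beyond sampling noise (82.6 to 171 in chi-square over its degrees of freedom), so no pair was merged into 1 sample, which does not show that they are independent. Each was used as 1 replicate, as labelled.

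Counts were fitted with edgeR 4.0.16 in R 4.3.3, with filterByExpr at its defaults (18113 genes tested, 9832 not, all 43 members tested), TMM scaling and a mean per group over all 9 libraries (6 residual degrees of freedom). The quasi-likelihood test was adjusted by Benjamini-Hochberg over all tested genes and called at 0.05, with no minimum fold. Fold changes are combined over saline, combined over gefitinib and gefitinib over saline, ± SE. Standard deviations are over 3 libraries. The members, the other pathway lists and the markers were chosen with earlier results of these data known. Every member is described, with all library values for called members, regulators, omega oxidation and secreted members. From other lists, up to 3 called genes with the smallest adjusted p in a comparison could be named, and the text gives a selection. Counts for the list of ketone body genes are not reported here. Shared 100-base words were counted in GENCODE M21 transcripts, and promoters come from RefSeq.

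Alternatives were median-ratio, upper-quartile and library-size scaling, only genes of at least 5 FPKM on average, no filter, DESeq2 1.42.0, limma 3.58.1 on log2(FPKM + 1) and log2(FPKM + 0.1), a robust prior, the replicate number as a block, only the 6 libraries compared, and each library left out. Figures used matplotlib 3.10.9 in Python 3.11.15.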

Additional observations from a re-analysis of the deposited data

How the results depend on the processing

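No called fold change of a member changed sign in any of the alternatives run. Of the members' values over all alternatives and comparisons, 2297 stayed on their side of the threshold, 223 were no longer called and 48 were newly called. In the combined group against saline, 20 members were called. The count was 10 with library size alone, 13 with no filter and 8 with limma on either log2(FPKM + 1) or log2(FPKM + 0.1). It ran from 8 to 24 with 1 library left out. Over all genes, the main fit called 3205, library size alone 3785 and no filter 2469. Limma called 4163 and 4129 of all genes, and leaving out 1 library gave 2065 to 2967. Against gefitinib, 12 were called. The count was 3 with library size alone, 5 with no filter, 22 with DESeq2 and 3 with limma on either log2(FPKM + 1) or log2(FPKM + 0.1). It ran from 1 to 18 with 1 library left out. Over all genes, the main fit called 1644, library size alone 1893, no filter 1092 and DESeq2 2755. Limma called 2257 and 2064 of all genes, and leaving out 1 library gave 751 to 1497. For gefitinib against saline, with 0 called, DESeq2 gave 1 (Angptl4) and the fit of only the 6 libraries gave 1 (Acot1). Leaving out 1 library gave 0 to 1 (Pdk4, without saline 1). Over all genes, calls came to 206 in the main fit, 868 with DESeq2, 150 with the 6 libraries and 171 without saline 1. With library size alone and with the FPKM fits, the median of all tested genes shifted upward in the combined group. Over all alternatives, the members' median stayed 0.365 to 0.67 below that of all genes against saline and 0.29 to 0.543 below against gefitinib. Same-numbered libraries did not deviate together over all tested genes (correlations of -0.0756 to 0.0716). This gave no sign that the numbers pair the samples, but weak pairing or pairing limited to few genes would not show in it. With the replicate number as a block, 15 members were called against saline, 5 against gefitinib and 0 for gefitinib against saline, while calls over all genes came to 2496, 1028 and 82. Among the members, Fgf21, Acot2 and Acot3 had the fewest counts behind their values.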
